A study of Homo sapiens with 24 samples.

Results

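The autosomal potassium channel genes were examined in PANC-1 cells, an established human cell line of pancreatic ductal origin that was grown from a carcinoma. Members were the protein-coding genes of the hg19 GENCODE annotation (release 44, GRCh37 version) on chromosomes 1 to 22 with a symbol starting with KCN. The rule gave 93 genes of 18893 autosomal coding genes. They comprised 39 voltage-gated pore subunits, 15 inward rectifiers, 15 tandem-pore-domain subunits, 8 calcium- or sodium-activated and related pore subunits, and 16 auxiliary subunits and regulators. A peak was assigned to a gene when it covered at least 1 bp of a 2 kb window centred on any transcription start site (TSS) of a coding transcript. The 93 genes had 383 such windows, with a median of 3 per gene and up to 36 in KCNMA1.

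H3K4me3, H3K27ac and H3K27me3 were profiled by ChIP-seq, in which DNA bound to a modified histone is precipitated and sequenced. All cells were transfected with siRNA. In the siControl group they carried a control siRNA and were left untreated, in siControl+TGFb they carried the control siRNA and received TGFβ at 10 ng/ml for 48 h, and in siPHF13+TGFb they carried an siRNA against PHF13 and received the same TGFβ treatment. Each mark had 2 libraries per group, 18 in all, and 6 input samples were not analysed here. All libraries came from the same cell line, and nothing in the labels says whether the 2 libraries of a group were separate cultures, so any p-value measures only the spread between these libraries.

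Peak names within the lists disagreed with the labels of the TGFβ-treated groups. In the 6 lists labelled siPHF13+TGFb they read NCT, which the study uses for siControl+TGFb, and in the 6 lists labelled siControl+TGFb they read 3AT. Groups follow the labels, so a direction in any comparison that uses a TGFβ-treated group, siControl+TGFb against siControl included, depends on correct labels. The lists also differed in length, from 27869 to 39202 peaks for H3K4me3, from 6004 to 36104 for H3K27ac and from 59573 to 165717 for H3K27me3. The shortest list of every mark was that of siPHF13+TGFb replicate 1, so several results that use it are also given without it. Without read counts in the lists, sequencing depth was unknown. PHF13, the target of the siRNA, had an H3K4me3 peak in 6 of 6 lists, which does not measure the depletion since an siRNA acts on the transcript. Of 7 markers of ductal epithelium, 6 had H3K4me3 in all 6 lists. Among them, KRT8, KRT18, KRT19 and SOX9 had no H3K27me3 peak in a window in any list. EPCAM and CDH1 also had H3K27me3 in 6 and 5 of 6 lists, and CDH1 had no H3K27ac peak in a window. KRT7 had no peak of any mark in its windows. Of 9 markers of other cell types, from blood, endothelium, liver, endocrine and acinar cells, none had H3K4me3 in all 6 lists and 8 had none in any.

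Potassium channels let potassium ions leave or enter the cell and so set the membrane potential, the firing of neurons and muscle, the release of hormones, and salt and fluid transport across epithelia such as the pancreatic duct. Most families are expressed in a restricted way, many of them in neurons, heart or endocrine cells, and a few have broad roles in epithelia. H3K4me3 is found at promoters that are active or held ready, H3K27ac at active promoters and enhancers, and H3K27me3 is the repressive mark of Polycomb complexes. A promoter that carries both H3K4me3 and H3K27me3 is called bivalent. Polycomb complexes and H3K4 methyltransferases are both known to favour DNA rich in unmethylated CG dinucleotides.

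Each gene was given a state per group from the windows with a peak in both libraries. It was bivalent if any window had H3K4me3 and H3K27me3, active if any had H3K4me3 without H3K27me3, Polycomb-only if any had H3K27me3 alone, and unmarked otherwise, in that order. Active thus says nothing of H3K27ac or of transcription. In a mixed population the lists cannot tell both marks on the same promoter from each on part of the cells, and fewer cells with a mark cannot be told apart from less of the mark per cell.

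The promoters of 10 members are shown to let the sequence be read beside the state. They were taken from the members with the most bases under peaks of their state's mark within 5 kb of a TSS, and for the unmarked state the first 3 by symbol. Each is 300 bases of GRCh37 from 250 bases before the TSS of the canonical transcript to the 50 bases that start with it, 5′ to 3′ on the gene's strand, and capitals mark the CG dinucleotides. The first 2 were bivalent in siControl, KCNN1 a small-conductance calcium-activated subunit and KCNAB1 a cytoplasmic beta subunit.
KCNN1 (chr19:18077666-18077965, plus strand): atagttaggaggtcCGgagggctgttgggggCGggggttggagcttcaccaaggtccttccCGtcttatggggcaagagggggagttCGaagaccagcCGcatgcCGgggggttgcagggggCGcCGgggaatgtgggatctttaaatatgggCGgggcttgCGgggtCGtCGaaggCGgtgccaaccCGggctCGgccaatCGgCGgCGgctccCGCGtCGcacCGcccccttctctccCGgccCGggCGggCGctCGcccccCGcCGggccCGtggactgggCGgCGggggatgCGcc
KCNAB1 (chr3:155838117-155838416, plus strand): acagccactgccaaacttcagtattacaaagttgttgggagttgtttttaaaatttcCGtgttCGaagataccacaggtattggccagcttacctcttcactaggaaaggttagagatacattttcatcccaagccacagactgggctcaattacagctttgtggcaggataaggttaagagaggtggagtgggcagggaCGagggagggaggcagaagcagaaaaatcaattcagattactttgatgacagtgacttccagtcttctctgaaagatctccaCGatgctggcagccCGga
The canonical window of KCNN1 had H3K4me3 in 4 of 6 lists and H3K27me3 in 6. KCNAB1 had no H3K4me3 at its canonical start in any list, and its bivalent window lay at another TSS.

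The next 3 were active in siControl. KCNAB2 is another beta subunit, KCNMA1 the pore of the large-conductance calcium-activated channel and KCNQ5 a subunit of the neuronal M-current.
KCNAB2 (chr1:6105698-6105997, plus strand): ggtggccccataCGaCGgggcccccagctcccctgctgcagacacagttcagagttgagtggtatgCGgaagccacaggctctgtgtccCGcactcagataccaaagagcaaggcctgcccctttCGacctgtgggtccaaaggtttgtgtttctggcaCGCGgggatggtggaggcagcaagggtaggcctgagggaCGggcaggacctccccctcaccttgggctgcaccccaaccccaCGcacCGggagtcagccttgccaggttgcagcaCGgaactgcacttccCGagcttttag
KCNMA1 (chr10:79397517-79397816, minus strand): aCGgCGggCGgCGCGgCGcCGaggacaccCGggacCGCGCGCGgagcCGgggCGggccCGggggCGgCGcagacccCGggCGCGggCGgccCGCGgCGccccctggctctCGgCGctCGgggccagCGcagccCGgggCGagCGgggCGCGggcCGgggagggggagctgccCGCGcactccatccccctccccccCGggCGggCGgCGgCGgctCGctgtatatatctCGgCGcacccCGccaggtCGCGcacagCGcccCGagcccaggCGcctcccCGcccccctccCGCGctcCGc
KCNQ5 (chr6:73331542-73331841, plus strand): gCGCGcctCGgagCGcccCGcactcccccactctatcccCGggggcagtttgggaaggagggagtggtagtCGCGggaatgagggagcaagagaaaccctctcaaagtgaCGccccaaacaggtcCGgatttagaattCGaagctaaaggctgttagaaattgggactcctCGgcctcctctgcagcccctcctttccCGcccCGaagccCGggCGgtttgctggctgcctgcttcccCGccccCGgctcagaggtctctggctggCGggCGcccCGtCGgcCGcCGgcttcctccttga
KCNMA1 and KCNQ5 carried H3K4me3 at the canonical start in 6 of 6 lists, KCNMA1 with H3K27ac in 5 and KCNQ5 in 6. The canonical window of KCNAB2 held no peak of any mark, and its H3K4me3 lay at other TSSs.

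KCNIP1, which encodes a calcium-binding partner of voltage-gated channels, and KCNJ9, a G-protein-gated inward rectifier, were Polycomb-only in siControl.
KCNIP1 (chr5:169930774-169931073, plus strand): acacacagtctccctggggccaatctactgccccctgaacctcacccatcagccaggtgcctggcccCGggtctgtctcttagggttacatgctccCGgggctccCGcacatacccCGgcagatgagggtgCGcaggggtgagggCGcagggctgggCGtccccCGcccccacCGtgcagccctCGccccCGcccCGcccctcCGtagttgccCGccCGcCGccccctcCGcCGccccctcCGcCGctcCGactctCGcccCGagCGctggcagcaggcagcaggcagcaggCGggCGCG
KCNJ9 (chr1:160051078-160051377, plus strand): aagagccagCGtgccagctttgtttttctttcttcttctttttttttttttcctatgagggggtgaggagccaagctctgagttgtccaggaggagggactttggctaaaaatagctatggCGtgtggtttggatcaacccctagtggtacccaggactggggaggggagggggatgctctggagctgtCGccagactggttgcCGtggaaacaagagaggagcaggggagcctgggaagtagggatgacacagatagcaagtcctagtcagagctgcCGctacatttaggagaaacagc
Both had H3K27me3 at the canonical start in 6 of 6 lists. KCNIP1 also had H3K4me3 there in 4 lists, absent from siControl replicate 1 and siPHF13+TGFb replicate 2, and KCNJ9 in none.

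KCNA10, KCNA3 and KCNA4 encode voltage-gated subunits of the Shaker family and were unmarked in siControl, KCNA3 being the delayed rectifier of T cells and KCNA4 a fast-inactivating subunit of neurons and heart.
KCNA10 (chr1:111061748-111062047, minus strand): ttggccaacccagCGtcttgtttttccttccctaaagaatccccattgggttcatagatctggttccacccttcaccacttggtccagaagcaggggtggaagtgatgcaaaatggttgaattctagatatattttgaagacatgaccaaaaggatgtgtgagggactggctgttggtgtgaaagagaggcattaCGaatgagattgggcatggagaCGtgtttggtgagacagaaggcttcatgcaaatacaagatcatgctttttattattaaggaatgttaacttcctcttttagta
KCNA3 (chr1:111217513-111217812, minus strand): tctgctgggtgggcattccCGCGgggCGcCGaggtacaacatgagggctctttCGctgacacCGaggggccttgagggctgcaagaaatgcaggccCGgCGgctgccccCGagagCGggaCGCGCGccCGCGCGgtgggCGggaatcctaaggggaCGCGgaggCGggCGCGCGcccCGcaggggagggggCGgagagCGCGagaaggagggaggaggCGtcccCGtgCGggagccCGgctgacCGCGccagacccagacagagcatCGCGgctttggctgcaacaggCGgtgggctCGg
KCNA4 (chr11:30038528-30038827, minus strand): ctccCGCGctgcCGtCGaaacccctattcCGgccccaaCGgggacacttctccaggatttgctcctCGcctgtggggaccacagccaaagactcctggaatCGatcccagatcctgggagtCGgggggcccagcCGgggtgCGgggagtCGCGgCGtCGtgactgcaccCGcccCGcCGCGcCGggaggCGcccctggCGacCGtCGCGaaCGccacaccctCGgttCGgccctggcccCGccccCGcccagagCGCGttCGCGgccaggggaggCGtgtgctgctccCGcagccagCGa
KCNA3 and KCNA4 had no peak of any mark in the canonical window in the 18 lists, and KCNA10 had H3K27me3 there in 5 of 6.

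The number of CG dinucleotides in these windows went with the state. It had a median of 32.5 over the 42 bivalent members (range 5 to 53), 19 over the 17 active members (6 to 54), 15.5 over the 16 Polycomb-only members (1 to 47) and 6 over the 18 unmarked members (1 to 37). Over all genes with a canonical TSS the medians were 29, 28, 6 and 5. The largest gaps between members and all genes were thus in the active state, where the potassium channel promoters had fewer CG dinucleotides, and in the Polycomb-only state, where they had more. At least 10 CG dinucleotides stood in 92.9% of bivalent, 88.2% of active, 68.8% of Polycomb-only and 27.8% of unmarked members, against 90.7%, 93.9%, 31.5% and 26.8% of all genes of the same states and 75.1% of all genes. KCNA3 and KCNA4, with 37 each, and KCNA6, with 23, held as many as typical bivalent or active members while unmarked. These are descriptions over genes, which are not replicates. The state could come from another TSS than the canonical one, as at KCNAB1 and KCNAB2.

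**Figure D1:**
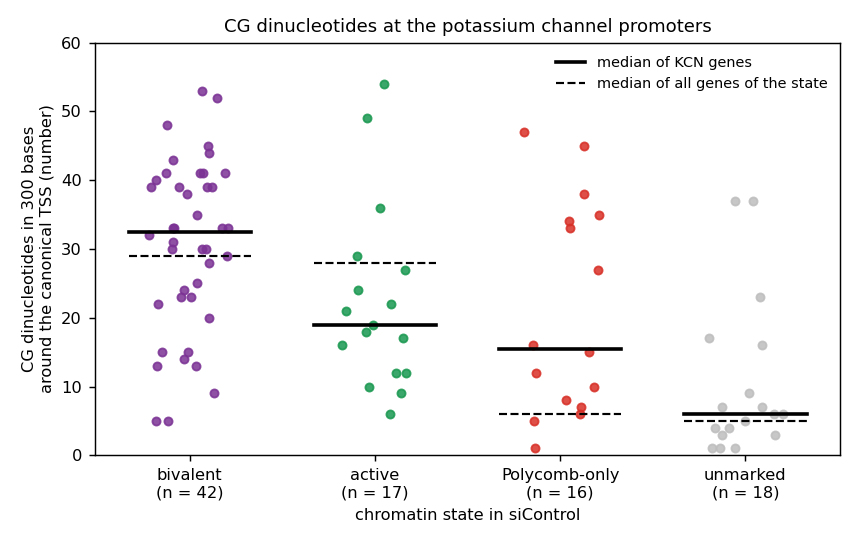
CG dinucleotides (number, vertical axis) in 300 bases around the canonical TSS of each potassium channel gene, by chromatin state in siControl (horizontal axis). Each point is a gene, solid bars are medians of the members (32.5, 19, 15.5 and 6) and dashed bars medians of all genes of the state (29, 28, 6 and 5), and points are spread sideways only to be seen.

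To examine which marks the potassium channel promoters carried, the members were set beside all autosomal coding genes. H3K27ac was less frequent and H3K27me3 more frequent in members, while H3K4me3 differed less. From 53 to 69 members had H3K4me3 in a library, or 57.0% to 74.2%, against 70.7% to 73.6% of all genes. The share was higher in members in 1 of 6 lists, that of siControl replicate 2, and lower in the others, furthest in siPHF13+TGFb replicate 1 with 57.0% against 70.7% and siControl replicate 1 with 63.4% against 71.4%. H3K27me3 was found at 53 to 70 members, or 57.0% to 75.3%, against 15.7% to 30.4% of all genes, and the share was higher in members in 6 of 6 lists. H3K27ac was found at 1 to 12 members, or 1.08% to 12.9%, against 19.9% to 60.3%, and the share was lower in members in 6 of 6 lists.

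**Figure D2:**
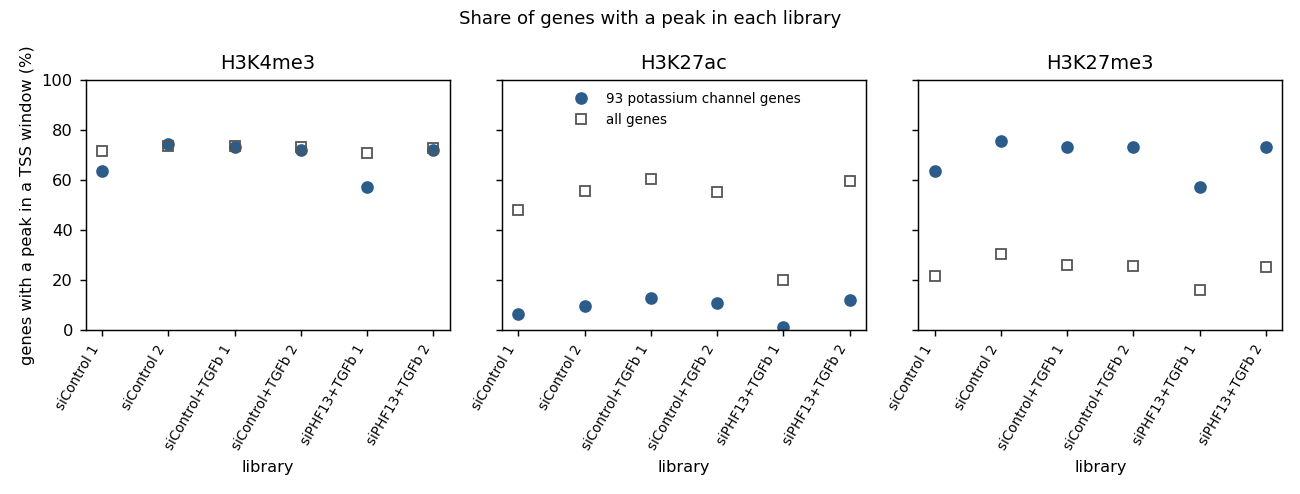
Share of genes with a peak in a TSS window (%, vertical axis) in each library (horizontal axis), with a panel per mark, for the 93 potassium channel genes (filled circles) and all 18893 autosomal coding genes (open squares). Members lie above all genes for H3K27me3 and below them for H3K27ac in every library, and siPHF13+TGFb replicate 1 is lowest in all panels for both sets.

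For each mark taken alone, most members had a peak in all 6 lists or in none. Those with a peak in some lists only numbered 19 for H3K4me3, 22 for H3K27me3 and 12 for H3K27ac. H3K4me3 was present in all 6 lists at 50 members (53.8%, against 70.2% of all genes) and in none at 24 (25.8%, against 25.8%). H3K27me3 was present in all 6 lists at 49 members (52.7%, against 13.9%) and in none at 22 (23.7%, against 66.9%). H3K27ac was in none of the lists at 80 members (86.0%, against 38.7%), and 1 member, KCNQ5, had it in all 6.

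In siControl cells, 42 members (45.2%) were bivalent, against 11.9% of all genes. Another 17 (18.3%) were active, against 59.4%, 16 (17.2%) were Polycomb-only, against 8.11%, and 18 (19.4%) were unmarked, against 20.6%. With only the 50% strongest peaks of each list the bivalent members numbered 14, with 10 active, 38 Polycomb-only and 31 unmarked. From siControl replicate 1 alone 42 members were bivalent and from replicate 2 alone 58.

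**Figure D3:**
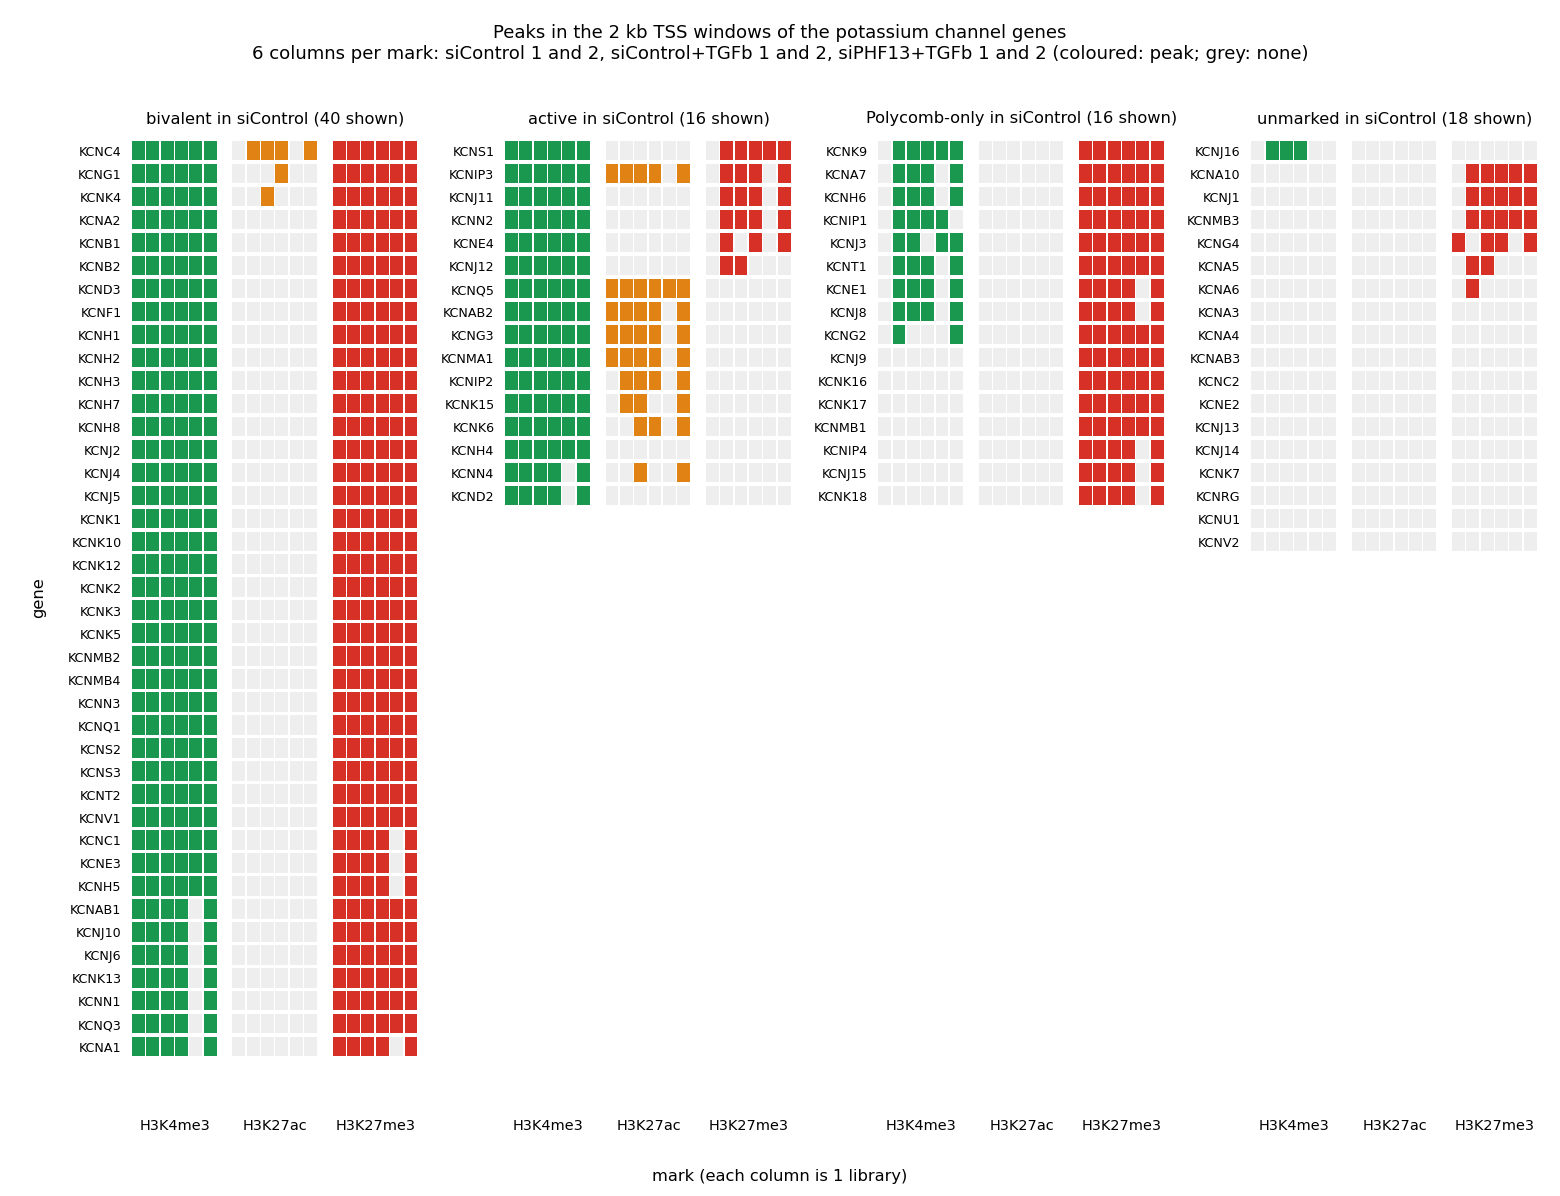
Peaks in the 2 kb TSS windows of 90 of the 93 potassium channel genes (rows), in 4 panels by chromatin state in siControl. Each mark has 6 columns, 1 per library, in the order siControl 1 and 2, siControl+TGFb 1 and 2, siPHF13+TGFb 1 and 2, coloured where a peak was present. H3K27ac is present in 12 of the rows, and most gaps in rows that are otherwise full fall in siPHF13+TGFb replicate 1.

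Among the voltage-gated subunits, 22 of 39 were bivalent in siControl, 6 active, 3 Polycomb-only and 8 unmarked. Bivalency covered 6 of the 8 ether-a-go-go (KCNH) genes, among them KCNH1, an EAG channel found in many tumours, and KCNH2, the hERG channel of cardiac repolarization. KCNH4 was active and KCNH6 Polycomb-only. It also covered KCNQ1, the slow delayed-rectifier subunit of heart and epithelia, KCNQ3, both KCNB genes of neuronal delayed rectifiers, and KCNF1, KCNG1, KCNS2, KCNS3 and KCNV1, subunits that conduct only in combination with others. The Shaker family (KCNA) differed, with 5 of 8 members unmarked (KCNA3, KCNA4, KCNA5, KCNA6 and KCNA10), KCNA1 and KCNA2 bivalent and KCNA7 Polycomb-only. The other unmarked voltage-gated members were KCNC2, KCNG4 and KCNV2. KCNG2 was Polycomb-only, and KCND2, KCNG3, KCNQ5 and KCNS1 were active like KCNH4. KCNC1, KCNC4 and KCND3, subunits of fast-spiking and transient currents, were bivalent too, as were KCNH3, KCNH5, KCNH7 and KCNH8.

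KCNH1, KCNH2 and KCNQ1 illustrate the bivalent pattern in the bases under peaks within 5 kb of a TSS, a measure that grows with the number of TSSs. At KCNH1, H3K4me3 covered 1090 and 1253 bp for siControl, 1590 and 1603 bp for siControl+TGFb, and 1215 and 1207 bp for siPHF13+TGFb. Its H3K27me3 spanned 7286 and 9500 bp, 7426 and 5679 bp, and 3028 and 8059 bp in the same order. At KCNH2, H3K4me3 spanned 1118 and 1921 bp, 1981 and 1990 bp, and 952 and 1876 bp, and H3K27me3 5655 and 9238 bp, 8435 and 8024 bp, and 3021 and 6721 bp. KCNQ1 was among the 5 members with the most H3K27me3, at 15617 and 22976 bp, 20246 and 21260 bp, and 9586 and 19498 bp. Its H3K4me3 spanned 1066 and 959 bp, 992 and 1139 bp, and 460 and 931 bp. For each gene the lowest H3K27me3 value was that of siPHF13+TGFb replicate 1, and no H3K27ac peak lay within 5 kb of their TSSs in any list. One of the KCNQ1 windows overlaps a window of TRPM5, so a peak there cannot be given to either gene alone.

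The tandem-pore-domain subunits, which carry background leak currents, were bivalent at 8 of 15 members: KCNK1, KCNK2, KCNK3, KCNK4, KCNK5, KCNK10, KCNK12 and KCNK13. KCNK9, KCNK16, KCNK17 and KCNK18 were Polycomb-only, KCNK6 and KCNK15 active, and KCNK7 unmarked. At KCNK1, H3K4me3 covered 1258 and 1249 bp for siControl, 1584 and 1160 bp for siControl+TGFb, and 1075 and 1133 bp for siPHF13+TGFb. Its H3K27me3 spanned 9745 and 19238 bp, 14121 and 14666 bp, and 7415 and 13663 bp. At KCNK5, a subunit of acid-sensitive background channels in epithelia, the values were 1123 and 1331 bp, 1715 and 1380 bp, and 753 and 1277 bp for H3K4me3, and 5793 and 8244 bp, 6407 and 6728 bp, and 2136 and 6560 bp for H3K27me3. Both genes were bivalent in all 3 groups. KCNK4, a mechanically gated subunit, had the largest part of its gene body under H3K27me3 of all members, 91.1% on average over the 6 lists.

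The inward rectifiers, which set resting potential and couple it to G proteins or metabolism, were spread evenly over the states, with 5 of 15 bivalent, 2 active, 4 Polycomb-only and 4 unmarked. KCNJ2, KCNJ4, KCNJ5, KCNJ6 and KCNJ10 were bivalent. KCNJ11, the pore of the ATP-sensitive channel of beta cells, and KCNJ12 were active. KCNJ3, KCNJ8, KCNJ9 and KCNJ15 were Polycomb-only, and KCNJ1, KCNJ13, KCNJ14 and KCNJ16 unmarked. None of the 15 had an H3K27ac peak in a TSS window in any list. At KCNJ11, H3K4me3 covered 1213 and 1244 bp for siControl, 1334 and 1086 bp for siControl+TGFb, and 982 and 1014 bp for siPHF13+TGFb, and H3K27me3 1269 and 3741 bp, 4382 and 2034 bp, and 0 and 3213 bp. Its state thus turned on H3K27me3, which had no peak in a window in siControl replicate 1 and siPHF13+TGFb replicate 1.

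Of the 8 calcium- or sodium-activated and related subunits, KCNN1, KCNN3 and KCNT2 were bivalent, KCNMA1, KCNN2 and KCNN4 active, KCNT1 Polycomb-only and KCNU1 unmarked. Of the 16 auxiliary subunits and regulators, KCNAB1, KCNE3, KCNMB2 and KCNMB4 were bivalent, KCNAB2, KCNE4, KCNIP2 and KCNIP3 active, KCNE1, KCNIP1, KCNIP4 and KCNMB1 Polycomb-only, and KCNAB3, KCNE2, KCNMB3 and KCNRG unmarked. KCNMA1, the pore, and its beta subunits differed in state. KCNMA1 was active with no H3K27me3 peak in a window in any list, KCNMB2 and KCNMB4 were bivalent in all 3 groups, and KCNMB1 was Polycomb-only in all 3.

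H3K27ac was found in a TSS window of 13 members in at least 1 list. KCNQ5 had it in 6 of 6 lists, KCNAB2, KCNG3, KCNIP3 and KCNMA1 in all but siPHF13+TGFb replicate 1, and KCNC4 and KCNIP2 in 4. KCNK6 and KCNK15 had it in 3, KCNN4 in 2, and KCNG1 and KCNK4 in 1. In siControl, 6 of the 17 active members had H3K27ac in both libraries, against 77.6% of all active genes. None of the 42 bivalent members did, against 8.99% of all bivalent genes. Windows of KCNAB2 and KCNG3 overlap windows of NPHP4 and MTA3, and the peaks there cannot be assigned to the channel gene alone. Among members that share no window with another coding gene, KCNIP3, KCNMA1 and KCNQ5 were the active members with H3K27ac in both siControl libraries.

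The largest amounts of H3K27ac near a member were at KCNN4 and KCNMA1. KCNN4 encodes the intermediate-conductance calcium-activated channel of epithelia and lymphocytes, and H3K27ac within 5 kb of its TSSs covered 2827 and 2684 bp for siControl, 3944 and 2973 bp for siControl+TGFb, and 379 and 3921 bp for siPHF13+TGFb. Nearly all of it lay outside the 2 kb windows. In siControl+TGFb replicate 2, for example, a peak of 1557 bp stood 2866 bp from the nearest KCNN4 TSS and a peak of 1416 bp stood 3041 bp from it, and no other coding TSS was nearer. Peaks within the windows of KCNN4 were found in siControl+TGFb replicate 1, 480 bp wide, and siPHF13+TGFb replicate 2, 412 bp wide. At KCNMA1, H3K27ac covered 1949 and 2062 bp for siControl, 4153 and 2553 bp for siControl+TGFb, and 0 and 3460 bp for siPHF13+TGFb. Both siControl+TGFb values lay above both siControl values at these genes, siPHF13+TGFb replicate 1 was the lowest library, and siPHF13+TGFb replicate 2 lay between the siControl+TGFb values.

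KCNQ5 had H3K27ac over 948 and 1569 bp for siControl, 2309 and 1802 bp for siControl+TGFb, and 153 and 2019 bp for siPHF13+TGFb. Its H3K4me3 was steadier, at 2863 and 2733 bp, 2792 and 3012 bp, and 2521 and 2769 bp. KCNAB2 had the most H3K4me3 of all members, at 4995 and 5129 bp, 5369 and 4653 bp, and 3540 and 4948 bp, a mean of 4772 bp that 99.3% of all genes did not exceed. Its H3K27ac spanned 439 and 1354 bp, 2926 and 1647 bp, and 0 and 2455 bp. KCNMA1 followed in H3K4me3 with 2813 and 3440 bp, 3397 and 3720 bp, and 2662 and 3189 bp. KCNK6, a leak channel subunit, had 2280 and 2703 bp, 3091 and 2814 bp, and 2360 and 2636 bp. KCNAB3 was the fifth, with 2744 and 2559 bp, 2517 and 2360 bp, and 2040 and 2641 bp, but those peaks overlapped the starts of TRAPPC1 and CNTROB, and its own windows held none.

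**Figure D4:**
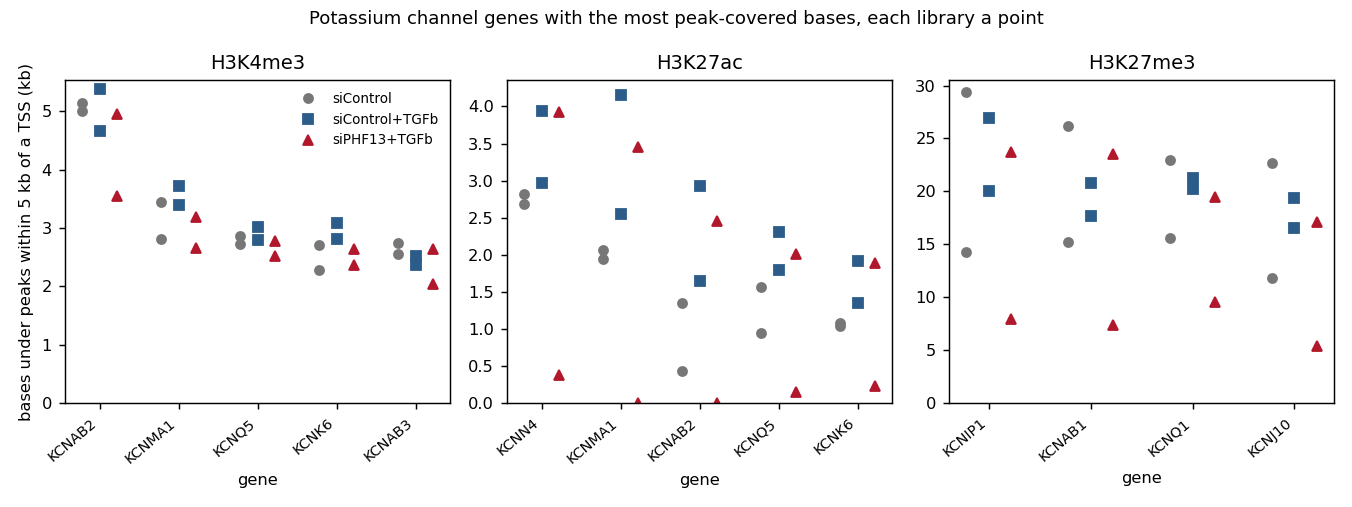
Bases under peaks within 5 kb of a TSS (kb, vertical axis, scaled separately in each panel) for potassium channel genes among the 5 with the highest mean over the 6 libraries, with a panel per mark. Each point is a library, 2 per group, and no error bars are drawn. The lower siPHF13+TGFb point of each gene is replicate 1 in all panels, at 0 bp of H3K27ac in KCNMA1 and KCNAB2.

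Away from the TSS windows, H3K27ac peaks within the gene body were found in 24 members in at least 1 list, 289 peaks summed over the 6 lists. KCNMA1, which spans 768769 bp, held most of them, with 17 and 26 in siControl, 47 and 35 in siControl+TGFb, and 7 and 32 in siPHF13+TGFb. KCNQ5, which spans 577057 bp, held 2 and 3, 13 and 2, and 0 and 8. Of the 24 members, 20 had no H3K27ac at a TSS window in any list, among them KCNJ6, KCNK3, KCNJ5 and KCNN1. KCNJ6, a G-protein-gated inward rectifier that was bivalent in siControl, held 0 and 2, 8 and 4, and 0 and 2. The number of members with such a peak was 7 and 13 in siControl, 21 and 14 in siControl+TGFb, and 2 and 21 in siPHF13+TGFb. The shortest lists of each comparison gave the fewest, and the part of list length in this was not tested.

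In fold enrichment over the input, as the authors' peak caller gave it, the H3K4me3 peaks of bivalent members had a higher median than those of active ones. Over the members with a peak in all 6 lists, the mean fold had a median of 7.09 in 35 bivalent members (range 4.02 to 10.5) and 5.61 in 15 active members (3.27 to 8.81), with 7.46 and 6.35 over all genes of these states. Their widest H3K4me3 peak had a median of 1167 bp in bivalent and 1258 bp in active members, against 1328 and 1748 bp over all genes. The widest H3K27me3 peak had a median of 4776 bp in bivalent members and 5240 bp in Polycomb-only members, close to the 4735 and 4970 bp of all genes of these states.

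The most H3K27me3 within 5 kb of a TSS was found at KCNIP1, KCNAB1, KCNQ1 and KCNJ10, each in the top 1% of all genes in mean. KCNIP1 had 14326 and 29352 bp for siControl, 20006 and 26906 bp for siControl+TGFb, and 7963 and 23768 bp for siPHF13+TGFb. KCNAB1 had 15214 and 26180 bp, 17710 and 20754 bp, and 7378 and 23550 bp. KCNJ10, a potassium channel of glia and kidney, had 11848 and 22659 bp, 16560 and 19412 bp, and 5459 and 17086 bp. The siControl libraries lay on either side of the siControl+TGFb libraries at each of them. H3K27me3 covered more than 50% of the gene body on average at 11 members, such as KCNN3 with 65.3% of 172827 bp and KCNJ1 with 58.9% of 31059 bp. The median share of the gene body covered ranged from 0.546% in siPHF13+TGFb replicate 1 to 19.6% in siControl replicate 2.

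Among the 18 unmarked members, 11 had no peak of any mark in their windows in the 18 lists, namely KCNA3, KCNA4, KCNAB3, KCNC2, KCNE2, KCNJ13, KCNJ14, KCNK7, KCNRG, KCNU1 and KCNV2. KCNA10, KCNJ1 and KCNMB3 had H3K27me3 in 5 of 6 lists, absent from siControl replicate 1, so their state in siControl rested on that library. KCNG4 had H3K27me3 in 4 lists, KCNA5 in 2 and KCNA6 in 1. KCNA3 was flanked rather than covered: in siControl replicate 2, H3K27me3 peaks of 2097 and 1449 bp ended 1933 and 1434 bp from its TSS.

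The states of neighbouring members are given as counts, and how often neighbours would match over all genes was not computed. Distances are those between the gene bodies, and the TSSs that set the states can lie further apart. Of 12 adjacent pairs of members that overlapped or lay within 200 kb of each other, 2 had the same state in siControl, KCNIP1 with KCNMB1 within it and KCNK17 with KCNK16, both Polycomb-only. On chromosome 1, KCNA2 was bivalent between KCNA10 and KCNA3, which were unmarked, with 661 and 22085 bp between the gene bodies. The canonical TSSs of KCNA10 and KCNA2 lay at positions 111061797 and 111148980. On chromosome 12, KCNA1 was bivalent between KCNA6 and KCNA5, also unmarked, at 96586 and 125622 bp. On chromosome 17, bivalent KCNJ2 lay 33064 bp from unmarked KCNJ16, and on chromosome 21, bivalent KCNJ6 lay 34203 bp from Polycomb-only KCNJ15.

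To examine the response of these promoters to TGFβ, siControl+TGFb was compared with siControl. Few potassium channel promoters gained a mark, and KCNK6 was the member that did so in both libraries. The counts of marked members did not separate. H3K4me3 was at 59 and 69 members in siControl and at 68 and 67 in siControl+TGFb (difference of means 3.5, two-sided exact permutation p = 1.00). H3K27me3 was at 59 and 70 members against 68 and 68 (difference 3.5, exact permutation p = 1.00). H3K27ac was at 6 and 9 members against 12 and 10 (difference 3.5, exact permutation p = 0.333), and both siControl+TGFb libraries were above both siControl libraries. With lists of equal length, this H3K27ac difference was -0.5. With 2 libraries against 2 this test cannot go below 0.333. Without siControl replicate 1, the differences for H3K4me3 and H3K27me3 were -1.5 and -2. The share with H3K27ac was 6.25 percentage points higher over all genes and 3.76 points higher over members.

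Gains and losses were counted as a peak in both libraries of a group and in neither of the other. With TGFβ, 0 of 93 members gained H3K4me3 and 0 lost it, against 0.175% and 0.00529% of all genes. For H3K27me3 the counts were 0 gained and 0 lost, against 0.275% and 0.498%. For H3K27ac, 1 member gained a peak, against 1.50% of all genes, and 0 lost it, against 0.00529%. The gain was at KCNK6, with peaks of 475 bp (2.15-fold over input) and 157 bp (2.73-fold) at 143 and 174 bp from its TSS in siControl+TGFb, none in the siControl libraries, and a peak of 515 bp for siPHF13+TGFb replicate 2. At the threshold of 200 bp of overlap or of a −log10 q of at least 3, this gain was not counted. Stronger H3K27ac peaks within 5 kb of KCNK6, present in all 6 lists, were nearest to the TSS of YIF1B.

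By state, 52 members (55.9%) were bivalent in siControl+TGFb, against 13.3% of all genes, 15 were active, 13 Polycomb-only and 13 unmarked. All 42 bivalent members of siControl were bivalent here too, where 92.8% of all bivalent genes were. Another 10 became bivalent: KCNA7, KCNE1, KCNH6, KCNIP1, KCNJ8, KCNK9 and KCNT1 from Polycomb-only, and KCNJ11, KCNN2 and KCNS1 from active. These were 7 of 16 Polycomb-only and 3 of 17 active members, against 9.07% and 2.46% of all genes of these states. Each of the 10 was already bivalent in siControl replicate 2 alone and none in siControl replicate 1 alone, so all of these changes depended on siControl replicate 1. KCNA10, KCNG4, KCNJ1 and KCNMB3 moved from unmarked to Polycomb-only, and KCNJ16, an inward rectifier of kidney that pairs with KCNJ10, from unmarked to active. These were 4 and 1 of 18 unmarked members, against 10.3% and 2.85% of all unmarked genes. In all, 61 members (65.6%) had the same state in all 3 groups, 31 of them bivalent, 12 active, 5 Polycomb-only and 13 unmarked, against 87.2% of all genes. The 2 sets differed in their siControl states, with 45.2% of members and 11.9% of all genes bivalent. Shares matched by starting state were not computed for all 3 groups.

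**Figure D5:**
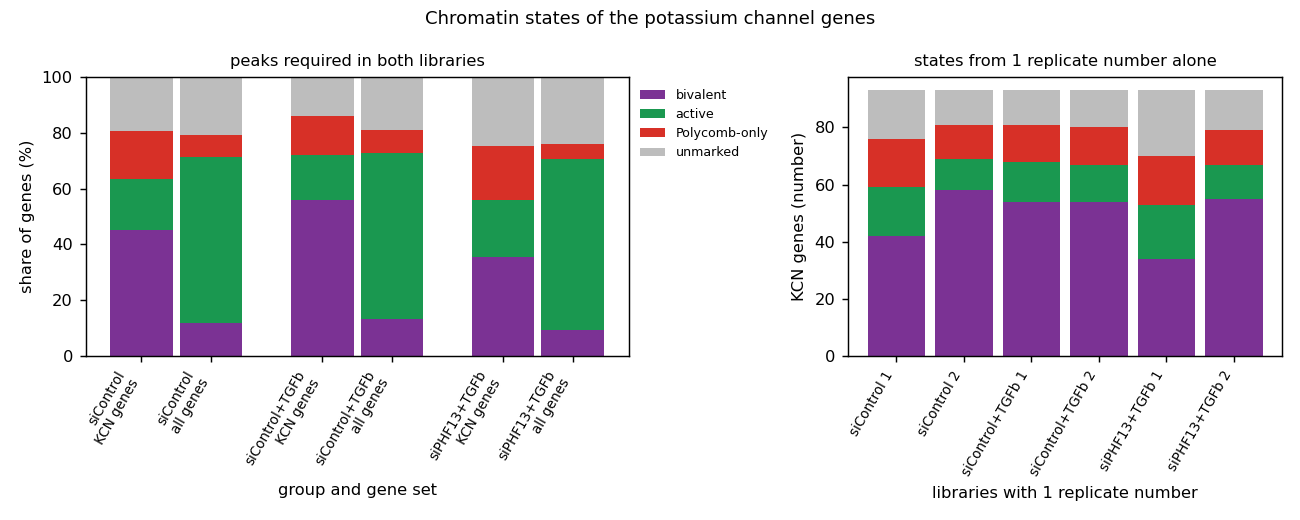
Left, share (%) of the potassium channel (KCN) genes and of all genes in each chromatin state, by group, with peaks required in both libraries. Right, number of KCN genes in each state when it was taken from the libraries of 1 replicate number alone. Bivalent members number 42, 52 and 33 by group, and by single replicate 42, 58, 54, 54, 34 and 55 from left to right.

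The bases under peaks within 5 kb of a TSS were fitted with limma over all genes with a peak in at least 2 of 6 libraries, as log2(bp + 200). For H3K4me3, 73 members were tested and 1 passed an adjusted p of 0.05 in either direction, against 0.0546% of all genes tested. It was KCNE2, a small auxiliary subunit of KCNQ1 and KCNH2 channels, with 0 and 0 bp for siControl, 533 and 419 bp for siControl+TGFb, and 0 and 0 bp for siPHF13+TGFb. Its fitted log2 change on this scale was 1.75 (SE 0.11, limma adjusted p = 0.0467). The peak lay outside the 2 kb windows, 1886 and 1902 bp from the KCNE2 TSS, with a fold enrichment of 6.44 and 4.70, and 4 of the 6 values were 0, which leaves little spread to estimate. The call was lost when any of the 4 libraries compared was left out, and without siPHF13+TGFb replicate 1. KCNE2 met the filter of a peak in at least 2 of 6 libraries only through siControl+TGFb, the group where it was high. The call is thus no support for a change, and with no filter 0 members were called. The median log2 change of the 73 members was 0.24, with 0.12 over all genes, 64 members were higher and 9 lower, and both siControl+TGFb libraries were above both siControl libraries at 30 members (41.1%), against 47.4% of all genes.

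The other members with the largest positive H3K4me3 differences had wide errors. KCNA7 covered 0 and 586 bp for siControl, 1476 and 1193 bp for siControl+TGFb, and 0 and 761 bp for siPHF13+TGFb (log2 change 1.95, SE 0.99). KCNH6 spanned 0 and 868 bp, 954 and 977 bp, and 0 and 577 bp. KCNT1, a sodium-activated channel, spanned 0 and 679 bp, 751 and 798 bp, and 0 and 345 bp. In these 3 genes both siControl+TGFb values lay above both siControl values, and siControl replicate 1 was at 0. KCNAB1 spanned 167 and 389 bp, 1097 and 818 bp, and 0 and 223 bp, and its groups did not overlap (log2 change 1.31, SE 0.44, limma adjusted p = 0.868). At the other end were KCNG2 with 0 and 233 bp against 0 and 0 bp, KCND3 with 1725 and 2362 bp against 1649 and 1569 bp, KCNS1 with 721 and 810 bp against 874 and 471 bp, KCNAB3, and KCNJ9 with 845 and 880 bp against 826 and 805 bp.

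For H3K27ac, 20 members were tested and 0 passed, against 0% of all genes tested, with 1 member and 0.504% of all genes at an unadjusted p under 0.05. In simulated data this fit called 0 of 50 genes even at a log2 change of 4, so 0 calls could not decide whether members changed. The median log2 change was 0.65, with 0.53 over all genes, and all 20 were higher in siControl+TGFb. Both siControl+TGFb libraries were above both siControl libraries at 10 members (50%), against 55.6% of all genes. The largest change was at KCNK3, an acid-sensitive leak channel that was bivalent in all groups, with 0 and 0 bp for siControl, 1362 and 492 bp for siControl+TGFb, and 0 and 1456 bp for siPHF13+TGFb (log2 change 2.38, SE 1.19). KCNIP2 followed with 0 and 486 bp against 1460 and 523 bp, then KCNJ12 with 0 and 322 bp against 1357 and 320 bp, KCNMB3 with 0 and 369 bp against 1064 and 442 bp, and KCNAB2. The smallest changes were at KCNH4 with 216 and 622 bp against 566 and 379 bp, KCNK15 with 0 and 718 bp against 1020 and 0 bp, KCNN4, KCNAB3 with 680 and 903 bp against 1253 and 871 bp, and KCNG3 with 611 and 948 bp against 1473 and 739 bp. KCNK3, KCNJ12, KCNMB3, KCNH4 and KCNAB3 had no H3K27ac peak in a TSS window in any list. Their covered bases thus lay outside the 2 kb windows. KCNK3 also met the filter only with the siControl+TGFb libraries, so its difference is no support for a change.

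For H3K27me3, 74 members were tested and 0 passed, against 0% of all genes tested, with 1 member and 1.18% of all genes at an unadjusted p under 0.05. The median log2 change was 0.17, with 0.08 over all genes, and without siControl replicate 1 it was -0.35. Both siControl+TGFb libraries were above both siControl libraries at 5 members (6.76%), against 6.61% of all genes. KCNA3 had the largest difference, with 619 and 3546 bp for siControl, 0 and 0 bp for siControl+TGFb, and 0 and 476 bp for siPHF13+TGFb (log2 change -3.13, SE 1.06, limma adjusted p = 1). KCND2, a subunit of transient outward currents, had 550 and 169 bp against 0 and 0 bp, KCNMB3 1663 and 4756 bp against 602 and 1872 bp, KCNMB2 3931 and 6160 bp against 3783 and 1094 bp, and KCNE4 216 and 3030 bp against 0 and 1566 bp. In the other direction, KCNN2 had 0 and 6151 bp against 4608 and 3888 bp, KCNS1 0 and 1944 bp against 970 and 1386 bp, KCNG4 172 and 732 bp against 1172 and 758 bp, KCNT1 1208 and 14653 bp against 13857 and 4615 bp, and KCNJ3 936 and 3062 bp against 3460 and 2751 bp. The 2 groups did not overlap at KCNA3, KCND2, KCNMB2 and KCNG4, and overlapped at the other 6. KCNA3 and KCND2 met the filter only with the siControl libraries, the group where they were high. Their separation is thus no support for a change.

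To examine the effect of PHF13 depletion under TGFβ, siPHF13+TGFb was compared with siControl+TGFb. Fewer potassium channel promoters had peaks in siPHF13+TGFb, which was seen in replicate 1, while replicate 2 held about as many as siControl+TGFb. H3K4me3 was at 53 and 67 members against 68 and 67 (difference of means -7.5, two-sided exact permutation p = 0.667), and at 67 without replicate 1 (difference -0.5). H3K27me3 was at 53 and 68 members against 68 and 68 (difference -7.5, exact permutation p = 1.00), and the difference was 0 without replicate 1. H3K27ac was at 1 and 11 members against 12 and 10 (difference -5, exact permutation p = 0.667), and the difference was again 0 without replicate 1 and 0.5 with lists of equal length. Over all genes the share changed by -1.63 points for H3K4me3, -5.43 for H3K27me3 and -18.0 for H3K27ac, against -8.06, -8.06 and -5.38 points in members.

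With depletion, 1 member lost H3K4me3, against 0.455% of all genes, and 0 gained it, against 0.00529%. For H3K27ac, 0 lost and 0 gained it, against 0.249% and 0.00529%, and for H3K27me3, 0 lost and 0 gained it, against 1.12% and 0.0794%. The loss was at KCNJ16, whose H3K4me3 covered 0 and 595 bp for siControl, 514 and 298 bp for siControl+TGFb, and 0 and 0 bp for siPHF13+TGFb, with a fold enrichment of 5.09 in siControl replicate 2 and of 4.83 and 5.17 in siControl+TGFb. It was absent from both siPHF13+TGFb libraries and also from siControl replicate 1. With only the canonical TSS it was not counted.

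The number of bivalent members was 33 (35.5%), against 9.07% of all genes, with 19 active, 18 Polycomb-only and 23 unmarked. Of the 52 members bivalent in siControl+TGFb, 32 stayed bivalent, where 65.9% of all bivalent genes did. The other 20 members left the bivalent state. KCNJ3 entered it from Polycomb-only, as 0.249% of all Polycomb-only genes did. KCNA7, KCNAB1, KCNH6, KCNIP1, KCNJ6, KCNJ10, KCNK13, KCNN1, KCNQ3 and KCNT1 became Polycomb-only, KCNC1, KCNE3, KCNH5, KCNJ11, KCNK9 and KCNN2 were among those that became active, and KCNA1, KCNE1 and KCNJ8 became unmarked. The counts were 10, 7 and 3 of 52 bivalent members, against 6.39%, 25.2% and 2.50% of all bivalent genes. Of these 20, 19 were bivalent in siPHF13+TGFb replicate 2 alone and 1 in replicate 1 alone. From replicate 2 alone 55 members were bivalent in siPHF13+TGFb, and the lower number was not seen without replicate 1. KCND2, KCNJ16 and KCNN4, 3 of 15 active members, moved from active to unmarked, as 1.59% of all active genes did. KCND2 and KCNN4 lacked an H3K4me3 peak in a window only in siPHF13+TGFb replicate 1. Within 5 kb of a TSS, H3K4me3 at KCND2 covered 609 and 1197 bp for siControl and 1411 and 1077 bp for siControl+TGFb. For siPHF13+TGFb it covered 0 and 1238 bp. KCNG4, KCNIP4, KCNJ15 and KCNK18, 4 of 13 Polycomb-only members, moved from Polycomb-only to unmarked, as 49.9% of all Polycomb-only genes did.

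Values behind these changes, in bases within 5 kb, are given in the order siControl, siControl+TGFb, siPHF13+TGFb. Among those that lost bivalency through H3K4me3, KCNJ6 covered 579 and 912, 1208 and 1056, and 0 and 827 bp, KCNJ10 covered 567 and 911, 1041 and 1019, and 0 and 1022 bp, and KCNQ3 covered 606 and 925, 972 and 709, and 0 and 900 bp. KCNN1 covered 1062 and 3553, 3306 and 1845, and 689 and 1846 bp. KCNK13, a leak channel subunit, covered 1361 and 2256, 2318 and 1911, and 823 and 2310 bp. These genes had their lowest value in siPHF13+TGFb replicate 1. KCNIP1 differed, with 0 and 584, 743 and 598, and 444 and 0 bp, so that here replicate 2 was the library at 0.

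Among those that lost bivalency through H3K27me3, KCNC1 covered 2750 and 12678, 8785 and 8894, and 954 and 6751 bp of this mark. KCNE3, an auxiliary subunit of epithelial KCNQ1 channels, covered 13448 and 15362, 12684 and 13553, and 3503 and 13508 bp. KCNE1, the auxiliary subunit of the cardiac KCNQ1 channel, covered 979 and 8954, 2722 and 3781, and 352 and 3541 bp, and its H3K4me3 0 and 618, 398 and 304, and 0 and 175 bp. KCNJ8, the pore of vascular ATP-sensitive channels, covered 283 and 2041, 200 and 1522, and 0 and 1008 bp of H3K27me3, and 0 and 714, 780 and 465, and 0 and 734 bp of H3K4me3. In each of these the lowest H3K27me3 library was siPHF13+TGFb replicate 1. KCNK9, a leak channel subunit, covered 9685 and 19910, 17973 and 17902, and 2638 and 19088 bp of H3K27me3, and kept a peak in its windows in every list, but no single window had both marks in both libraries.

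The 4 members that moved from Polycomb-only to unmarked lacked H3K27me3 in their windows in siPHF13+TGFb replicate 1. KCNJ15 covered 2771 and 17601, 5290 and 8736, and 177 and 7924 bp, and KCNK18, a leak channel subunit of sensory neurons, 4690 and 10000, 9367 and 7338, and 2114 and 7078 bp. KCNIP4 covered 1124 and 3641, 1000 and 1798, and 300 and 635 bp. KCNJ1, an inward rectifier of kidney tubules, which had moved from unmarked to Polycomb-only with TGFβ, covered 4926 and 14111, 11072 and 10521, and 6760 and 11063 bp. At KCNIP4, KCNK18 and KCNG4 both siPHF13+TGFb values lay below both siControl+TGFb values, and at KCNJ15 and KCNJ1 the groups overlapped.

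Peaks that were absent from siPHF13+TGFb replicate 1 alone were found at 9 of 93 members for H3K4me3, 9 for H3K27me3 and 5 for H3K27ac. Over all 18893 genes they were found at 185, 882 and 5145 genes in that order. In the other lists these were not all weak. In siControl+TGFb replicate 1, the 9 members of H3K4me3 had a median fold enrichment of 7.47, against 7.40 for the 50 members with a peak in all 6 lists. In siControl+TGFb replicate 2 it was 5.63 against 7.05, and in siPHF13+TGFb replicate 2 5.52 against 7.53. For H3K27me3 the medians in siControl+TGFb were 3.16 and 3.03, against 3.52 and 3.34 for the 49 members with a peak in all lists.

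In bases under H3K4me3, 1 of 73 members passed an adjusted p of 0.05 in either direction, against 0.0546% of all genes tested, and it was again KCNE2 (log2 change -1.75, SE 0.11, limma adjusted p = 0.0467), with the same siControl+TGFb libraries as in the comparison above. The call was lost without siPHF13+TGFb replicate 1 and without each other library of the comparison. KCNE2 again met the filter only through siControl+TGFb, so the call is no support for a change here either. The median log2 change of members was -0.45, with -0.21 over all genes. On leaving out 1 library at a time, siPHF13+TGFb replicate 1 included, the members' median ran from -0.7 to -0.14. With all libraries, 70 members were lower and 3 higher. Both siPHF13+TGFb libraries were below both siControl+TGFb libraries at 45 members (61.6%), against 61.9% of all genes. The other largest negative differences were at KCNAB1 (log2 change -1.98, SE 0.44, limma adjusted p = 0.402), KCNN4, KCNA7 and KCNJ16. KCNN4 had H3K4me3 over 806 and 1816 bp for siControl, 2646 and 1696 bp for siControl+TGFb, and 0 and 1730 bp for siPHF13+TGFb. At KCNAB1 and KCNJ16 both siPHF13+TGFb values lay below both siControl+TGFb values, and at KCNN4 they did not. KCNJ16 met the filter only with the siControl+TGFb libraries, so its separation is no support for a change. At the other end were KCNG2 with 0 and 166 bp for siPHF13+TGFb against 0 and 0 bp, KCNS1 with 700 and 981 bp for siPHF13+TGFb, KCNJ3 with 172 and 729 bp against 1247 and 0 bp for siControl+TGFb, KCNJ9 with 738 and 866 bp for siPHF13+TGFb, and KCNG1 with 1391 and 1591 bp for siPHF13+TGFb against 1566 and 1534 bp.

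For H3K27ac, 0 of 20 members passed, against 0% of all genes tested, with 0 members and 0.126% of all genes at an unadjusted p under 0.05. The simulation covered siControl+TGFb against siControl only. There the same fit called 0 of 50 genes at a log2 change of 4 for H3K27ac and for H3K27me3. Members had a median log2 change of -0.97, with -1.10 over all genes, and without replicate 1 it was 0.27. No member had both siPHF13+TGFb libraries below both siControl+TGFb libraries (0%), against 10.5% of all genes. The largest differences were at KCNMA1 (log2 change -2.02, SE 1.19), KCNAB2, KCNQ5, KCNIP2 with 0 and 828 bp for siPHF13+TGFb, and KCNN4, each with siPHF13+TGFb replicate 2 between or above the siControl+TGFb values. Among the smallest were those at KCNK7 with 167 and 0 bp for siControl+TGFb against 0 and 150 bp, KCNK15, KCNK4 with 198 and 0 bp against 0 and 0 bp, and KCNC4 with 1134 and 235 bp against 0 and 1071 bp.

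For H3K27me3, 0 of 74 members passed, against 0% of all genes tested, with 0 members and 1.77% of all genes at an unadjusted p under 0.05. Members had a median log2 change of -0.84, with -0.81 over all genes, and without replicate 1 it was 0.02. Both siPHF13+TGFb libraries were below both siControl+TGFb libraries at 20 members (27%), against 29.6% of all genes. Among the largest differences, KCNIP3 had 8139 and 5631 bp for siControl+TGFb against 0 and 6662 bp for siPHF13+TGFb (log2 change -2.57, SE 1.77), KCNT1 13857 and 4615 bp against 510 and 5228 bp, KCNH5 2109 and 3798 bp against 0 and 2509 bp, and KCNA1 2734 and 3448 bp against 0 and 2984 bp. In these 4 genes the groups overlapped. At the other end were KCNA3, KCNA6 with 0 and 457 bp against 0 and 1000 bp, KCNA10 with 1031 and 1373 bp against 502 and 3772 bp, KCNMB3 with 602 and 1872 bp against 439 and 2935 bp, and KCND2, which was at 0 bp in all 4 libraries.

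Set beside untreated cells, siPHF13+TGFb had H3K4me3 at 4 fewer members on average (-4), H3K27me3 at 4 fewer (-4) and H3K27ac at 1.5 fewer (-1.5), and without siPHF13+TGFb replicate 1 the differences were 3, 3.5 and 3.5. In bases under peaks, the median log2 change of members was -0.15 for H3K4me3, -0.30 for H3K27ac and -0.73 for H3K27me3, with -0.09, -0.51 and -0.76 over all genes. No member passed limma's adjusted p of 0.05, with 2 members at an unadjusted p under 0.05 for H3K4me3 and 0 for each of the other marks. Over all genes tested, 1.39% were under that p for H3K4me3, 0.0084% for H3K27ac and 2.61% for H3K27me3.

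Genes that encode partners of potassium channels, or the related HCN pacemaker channels, were taken from a list of 15. In siControl, 4 were bivalent (among them ABCC8, AMIGO1 and HCN4), 3 active (HCN2, HCN3 and LRRC26), 3 Polycomb-only (CNTNAP2, LRRC52 and LRRC55) and 5 unmarked (ABCC9, DPP6, DPP10, LGI1 and LRRC38). None had an H3K27ac peak in a window in any list. ABCC8, the sulfonylurea receptor that forms the ATP-sensitive channel with KCNJ11, was bivalent in all 3 groups. In either comparison no partner gained or lost H3K4me3 or H3K27ac. DPP6 and HCN2, 2 of 15, had an H3K27me3 peak in a window in both siControl+TGFb libraries and in neither siPHF13+TGFb library, as 1.12% of all genes did. Within 5 kb, H3K27me3 covered 3343 and 3312 bp at DPP6 for siControl+TGFb and still 1051 and 4253 bp for siPHF13+TGFb, and at HCN2 958 and 857 bp against 0 and 0 bp.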

How the data were processed

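Histone marks were measured by ChIP-seq in PANC-1 cells, with 2 libraries per mark in each of 3 groups. The submitters' processing notes name Trim Galore 0.4.1, Bowtie2 2.4.1, Picard, MACS2 2.2.7.1, deepTools 3.5.0 and hg19. The authors called peaks separately in each library, and the deposited lists give for each peak its coordinates, its fold enrichment over input (a ratio), and the −log10 of its p-value and q-value. The lowest −log10 q was 1.30 for H3K4me3 and H3K27ac, below the narrow-peak threshold that the methods state, and 1.00 for H3K27me3, which was called as broad peaks. The lists hold no read counts, so no interval of counting error could be given.

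Gene starts were taken from GENCODE release 44 on GRCh37. Peaks were assigned to 2 kb windows with an overlap of at least 1 bp, and bases under peaks within 5 kb of a TSS were fitted as log2(bp + 200) with limma 3.58.1 (R 4.3.3) over all genes with a peak in at least 2 of 6 libraries, with all 3 groups in the fit and Benjamini-Hochberg adjustment at 0.05. Fold changes are on that scale and understate changes of low values. Counts of members were compared by two-sided exact permutation tests. Python 3.11.15, numpy 2.4.6, pandas 2.3.3, scipy 1.17.1 and matplotlib 3.10.9 were used. Interval counting and the fit were tested on simulated data. In the comparison of siControl+TGFb with siControl, simulated log2 changes of 1, 2, 3 and 4 were called at 27, 43, 49 and 47 of 50 genes for H3K4me3 (14649 genes) and at 0 of 50 for H3K27ac (11903 genes) and for H3K27me3 (7812 genes).

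Members and lists were chosen with earlier results of these data known. Values are given by library for members that gained or lost a mark or changed state, the 5 with the most covered bases per mark, the 5 with the largest change in each direction per mark and comparison, and KCNN4, KCNMA1, KCNQ1, KCNK1, KCNK5, KCNH1, KCNH2, KCNA3 and KCNJ11. Alternatives varied the window, TSS, overlap, peak threshold, list length, pseudocount, filter, centring and libraries. The 6 inputs were not analysed here, and values of some genes and 1 promoter sequence are not reported here.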

Additional observations from a re-analysis of the deposited data

How the results depend on the processing

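Of 488 alternative values for 42 results, 390 kept their direction and size or side of the threshold. Leaving out 1 library at a time gave the following lowest and highest values. The difference in marked members between siControl+TGFb and siControl ran from -1.5 to 8.5 for H3K4me3, from 2 to 5 for H3K27ac and from -2 to 9 for H3K27me3, and the negative values were those without siControl replicate 1. Between siPHF13+TGFb and siControl+TGFb it ran from -14.5 to -0.5, from -10 to 0 and from -15 to 0. With siControl+TGFb, members gained ran from 0 to 8, 1 to 3 and 0 to 7 and members lost from 0 to 1, 0 to 0 and 0 to 1 for the 3 marks in that order. With siPHF13+TGFb, members gained ran from 0 to 1, 0 to 0 and 0 to 0, and members lost from 1 to 15, 0 to 8 and 0 to 13. Bivalent members ran from 42 to 58 in siControl, 54 to 54 in siControl+TGFb and 34 to 55 in siPHF13+TGFb, and active members in siControl from 11 to 17. For H3K4me3, the median log2 change ran from 0.04 to 0.4 in siControl+TGFb against siControl. In siPHF13+TGFb against siControl+TGFb it ran from -0.7 to -0.14. The median log2 change ran from -2.22 to 0.27 for H3K27ac and from -1.62 to 0.02 for H3K27me3 in siPHF13+TGFb against siControl+TGFb, where the positive values were those without siPHF13+TGFb replicate 1, and from -0.35 to 0.73 for H3K27me3 in siControl+TGFb against siControl, where -0.35 was the value without siControl replicate 1. H3K27ac members called in siPHF13+TGFb against siControl+TGFb ran from 0 to 11, and 11 of 20 (55%) were called without siPHF13+TGFb replicate 2, where 76.8% of all genes tested were called. That fit leaves siPHF13+TGFb replicate 1, whose list holds 6004 peaks, as a lone sample assumed to vary like the other groups.

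For H3K4me3, the members called, 1 in each comparison, became 0 to 0 on leaving out a library of the comparison. They were also 0 with centring on the median of all genes, with a pseudocount of 500 bp, with no filter, in 2 kb windows and with the 4 libraries of the comparison alone, and stayed at 1 with a pseudocount of 50 bp. In siControl+TGFb against siControl they were 0 without siPHF13+TGFb replicate 1, an alternative chosen after seeing the data. Centring turned the median log2 change of siPHF13+TGFb against siControl+TGFb to 0.43 for H3K27ac and 0.27 for H3K27me3. With lists of equal length, the difference in H3K27ac members became -0.5 with siControl+TGFb and 0.5 with siPHF13+TGFb.

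With the 50% strongest peaks, siControl had 14 bivalent, 10 active, 38 Polycomb-only and 31 unmarked members, and bivalent members numbered 23 in siControl+TGFb and 9 in siPHF13+TGFb. With a peak in at least 1 library of the group, siControl had 11 active and 11 unmarked members, and siPHF13+TGFb 56 bivalent members. With the gene's 5′ start alone, siControl had 30 unmarked members. Gains and losses involved few members and moved with the settings. H3K4me3 gains with siControl+TGFb were 1 in 4 kb windows, 3 with the 50% strongest peaks, 1 at a −log10 q of at least 3 and 1 with equal lists. H3K4me3 losses with siPHF13+TGFb were 2, 5, 3 and 2 under the same settings, 0 with canonical transcripts only and 2 with an overlap of 200 bp. H3K27ac gains with siControl+TGFb were 2 with canonical transcripts and 0 with an overlap of 200 bp, a −log10 q of at least 3 or equal lists, and H3K27ac losses with siPHF13+TGFb were 1 with canonical transcripts. H3K27me3 gains with siControl+TGFb were 1 with an overlap of 200 bp, the 50% strongest peaks or equal lists, and losses 1 in 4 kb windows. H3K27me3 losses with siPHF13+TGFb were 1 in 4 kb windows, with canonical transcripts, with an overlap of 200 bp, the 50% strongest peaks or equal lists. The cause of these changes was not tested.

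The labels do not say whether same-numbered libraries were made together. Over genes, their deviations correlated, for H3K4me3, H3K27ac and H3K27me3 in that order, at -0.41, -0.24 and -0.03 between siControl+TGFb and siControl, at -0.29, -0.07 and 0.02 between siPHF13+TGFb and siControl+TGFb, and at 0.53, 0.26 and 0.18 between siPHF13+TGFb and siControl. With a replicate block, H3K4me3 members called were 0 in both comparisons, and the block changed no other call. With the crossed pairing, chosen after seeing the data, they were also 0.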
